A study of Mus musculus with 14 samples.

Results

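The glycolysis and hypoxia response genes described here were a list of 34 genes, all of which were found among the 34866 gene identifiers of the count tables by their Ensembl identifier without its version. They were measured by RNA sequencing in 3 mouse tumour cell lines treated with an agonist of RIG-I or with its control agonist. CT26 is a colorectal carcinoma line of BALB/c origin, with 3 libraries per agonist. E0771, a mammary carcinoma line, and MC38, a colon adenocarcinoma line, both come from C57BL/6 mice and have 2 libraries per agonist. Cells were plated at 100000 per well, both agonists were used at 0.5 ug/ml, and RNA was collected after 24 h. CT26 and E0771 were grown in RPMI and MC38 in DMEM, so that medium and line cannot be told apart in any comparison with MC38. RIG-I is a cytosolic sensor of viral RNA. No untreated cells were analysed here, so each change is one of RIG-I agonist relative to control agonist.

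Glycolysis turns glucose into pyruvate, and many tumour lines then reduce the pyruvate to lactate and export it. Many of its genes are also targets of the hypoxia-inducible factors (HIF), whose alpha subunits are hydroxylated by oxygen-dependent prolyl hydroxylases and then degraded. When oxygen is short the alpha subunits persist, and HIF raises the genes of glucose uptake, glycolysis, pH control, mitophagy and blood vessel growth, including genes of its own inhibitors. HIF binds a short core, CGTG preceded by A or G, within the hypoxia response element, and ACGTG is the form searched here.

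The promoters of 6 members are shown, picked by their test results and, for 4 of them, also by holding ACGTG. Car9 had the largest called fall and Hk2 the largest called rise, and the other 4 were the members with the smallest adjusted p in CT26 whose promoter window holds ACGTG. Each window runs from 250 bases before to 50 bases after a RefSeq transcription start on GRCm38.p6 and is printed 5′ to 3′ on the gene's strand. Capitals mark ACGTG or its reverse complement CACGT, and the palindrome CACGTG is a match on both strands.
Slc16a3: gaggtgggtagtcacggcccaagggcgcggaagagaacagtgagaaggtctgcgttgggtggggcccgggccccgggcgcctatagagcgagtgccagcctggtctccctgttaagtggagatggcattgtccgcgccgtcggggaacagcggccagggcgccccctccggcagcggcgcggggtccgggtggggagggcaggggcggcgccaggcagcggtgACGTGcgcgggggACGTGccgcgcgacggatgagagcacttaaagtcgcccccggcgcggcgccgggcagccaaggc
Ldha: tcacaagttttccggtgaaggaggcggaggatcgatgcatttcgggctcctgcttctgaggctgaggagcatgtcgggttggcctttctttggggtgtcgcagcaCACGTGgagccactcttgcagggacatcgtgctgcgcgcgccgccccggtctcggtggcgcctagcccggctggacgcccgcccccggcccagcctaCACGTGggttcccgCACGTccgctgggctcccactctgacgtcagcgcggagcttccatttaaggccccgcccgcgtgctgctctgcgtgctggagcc
Pgk1: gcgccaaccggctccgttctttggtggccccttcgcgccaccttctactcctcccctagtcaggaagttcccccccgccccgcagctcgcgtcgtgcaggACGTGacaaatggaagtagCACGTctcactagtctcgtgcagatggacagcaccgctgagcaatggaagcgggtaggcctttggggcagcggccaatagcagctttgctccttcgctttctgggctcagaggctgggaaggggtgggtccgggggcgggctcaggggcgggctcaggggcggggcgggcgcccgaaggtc
Hif1a: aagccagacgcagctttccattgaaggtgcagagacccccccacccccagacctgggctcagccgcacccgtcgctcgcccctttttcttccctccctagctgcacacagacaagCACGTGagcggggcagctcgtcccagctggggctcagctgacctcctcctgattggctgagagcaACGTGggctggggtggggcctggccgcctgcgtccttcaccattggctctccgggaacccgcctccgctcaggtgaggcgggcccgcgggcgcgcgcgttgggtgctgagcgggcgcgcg
Car9: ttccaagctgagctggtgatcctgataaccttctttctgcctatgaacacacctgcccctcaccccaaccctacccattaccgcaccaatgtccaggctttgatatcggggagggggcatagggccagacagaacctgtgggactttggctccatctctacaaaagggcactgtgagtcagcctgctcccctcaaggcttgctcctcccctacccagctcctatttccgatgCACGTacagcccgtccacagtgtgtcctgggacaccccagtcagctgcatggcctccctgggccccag
Hk2: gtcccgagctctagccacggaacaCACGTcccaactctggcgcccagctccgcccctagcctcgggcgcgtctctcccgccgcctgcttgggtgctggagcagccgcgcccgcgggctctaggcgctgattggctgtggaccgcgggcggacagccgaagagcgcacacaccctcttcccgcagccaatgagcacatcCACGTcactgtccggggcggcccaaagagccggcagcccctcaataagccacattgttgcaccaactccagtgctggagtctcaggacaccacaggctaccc
The windows lie at chr11:120948817-120949116 (plus strand), chr7:46845554-46845853 (plus), chrX:106186850-106187149 (plus), chr12:73907617-73907916 (plus), chr4:43506776-43507075 (plus) and chr6:82774405-82774704 (minus). The Ldha window, 1 of 2 that RefSeq lists for the gene, holds 2 palindromes, and the Hif1a window holds 1. RefSeq gave a window for 32 of the 34 members, and 23 of the 32 (71.9%) had ACGTG on either strand in at least 1 window, against 21.8% of all 27025 genes. Among single windows the share was 27 of 50 (54%) for the members and 19.6% for all 32851. The members were listed as glycolysis and HIF target genes, so a share above that of all genes can follow from that choice. By outcome in CT26, the letters were present for 17 of 23 genes called lower (73.9%) and for 5 of 8 tested and not called (62.5%). No match was found in the windows of Pdk1 or Eno1. Pdk1 had the smallest adjusted p of the members in CT26 and is not shown for want of a match. A match is a description of these letters and not evidence of binding.

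Total estimated counts per library ran from 32826742 to 40564102 in CT26, from 12413347 to 13399247 in E0771 and from 12347361 to 18964563 in MC38. The RIG-I agonist had acted in every line, since Ifnb1, Cxcl10 and Isg15, an interferon, a chemokine and an antiviral modifier induced by this pathway, were each called higher (3 of 3 genes per line). The epithelial marker Epcam was at 0 in all CT26 and MC38 libraries, and Krt18 and Krt19 were at 0 in E0771. All 5 epithelial markers together stood at 15.9 to 17.9 CPM (counts-per-million) with RIG-I agonist and 20.5 to 25.2 with control in CT26. In E0771 they reached 209 to 236 CPM and 223 to 278 CPM, and in MC38 0.158 to 0.163 CPM and 0.193 to 0.614 CPM, in the same order. The 6 leukocyte markers together did not exceed 1.15 CPM in any library. Differences between lines in the biological coefficient of variation were wide, with 0.202 in E0771, 0.102 in CT26 and 0.0304 in MC38. The labels do not say whether libraries of a group came from separate cultures, so p-values measure only how these libraries vary, and that variation may be technical.

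In CT26 the glycolysis and hypoxia genes were lower with RIG-I agonist over most of the pathway. Of 34 members, 32 passed the filter on low counts, and 24 of them were called lower and 0 higher by edgeR's quasi-likelihood test (adjusted p under 0.05 over all genes tested). Over all 13893 genes tested, 18.6% were called lower and 19.8% higher, which is 38.4% in all. At an unadjusted p under 0.05 the count of members was 26, and DESeq2 called 0 higher and 25 lower. The median log2 fold change of the 32 members was -0.50, against 0.00 over all genes tested. For 25 members every RIG-I agonist library lay below every control library, and for 1, Pfkfb3, every one lay above; the shares over all genes were 25.0% and 26.4%. In bulk RNA, fewer cells that express a gene and less RNA per cell cannot be told apart.

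Together the 34 genes gave 14869, 15171 and 14912 CPM in the CT26 libraries with RIG-I agonist, against 21058, 20413 and 22435 CPM with control agonist. This was 1.49% to 1.52% of counts with RIG-I agonist and 2.04% to 2.24% with control, and the groups did not overlap. The mean summed level with RIG-I agonist over that with control was 0.703 in CT26, 1 in the E0771 line and 0.961 in the MC38 line. E0771 gave 19042 and 13556 CPM with RIG-I agonist and 18287 and 14192 CPM with control, so that the libraries within an agonist lay farther apart than the agonists. MC38 gave 15600 and 15250 CPM against 16006 and 16089 CPM. These sums are dominated by a few abundant enzymes.

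**Figure D1:**
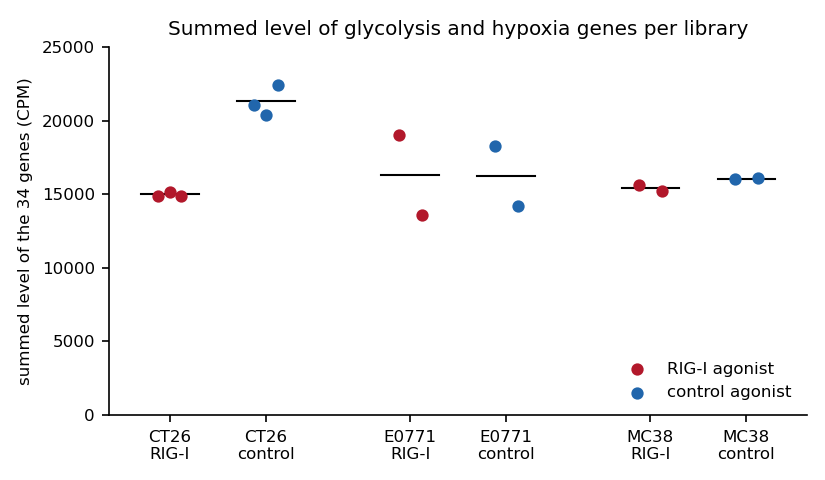
Summed level of the 34 genes in CPM (vertical axis, from 0) in each library, by line and agonist, with RIG-I agonist in red left of control agonist in blue. Points are libraries and lines are group means; the 3 CT26 libraries with RIG-I agonist sit between 14869 and 15171 CPM, below all 3 controls.

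The genes at the entry and exit of the pathway all fell in CT26. Slc2a1, the glucose transporter GLUT1, was at 76.2, 79.4 and 75 CPM with RIG-I agonist and at 133, 106 and 116 CPM with control. Its log2 fold change was -0.62 (SE 0.0747, adjusted p = 2.29e-05), a fall of 35.1%. Ldha, the lactate dehydrogenase subunit that favours pyruvate reduction, was at 2281, 2304 and 2201 CPM against 3366, 3210 and 3533 CPM in controls (log2 -0.58, SE 0.0619, adjusted p = 7.95e-06). Slc16a3, the lactate exporter MCT4, had nearly equal values of 51.9, 52.2 and 51.9 CPM with RIG-I agonist, and 90, 76.8 and 81.2 CPM with control. Its fall of 0.67 on the log2 scale (SE 0.0662, adjusted p = 3.4e-06) had the smallest adjusted p of the 3. None of the 3 genes had overlapping groups.

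Among the 8 genes of upper glycolysis, from hexokinase to aldolase, 5 fell and none rose. All 3 phosphofructokinase genes, whose enzyme commits sugar to glycolysis, fell by similar amounts. Pfkl was at 168, 164 and 161 CPM with RIG-I agonist and 290, 232 and 232 CPM with control (log2 -0.61, SE 0.0797). Pfkm (-0.58) and Pfkp (-0.55) followed, as did Gpi1, the glucose-6-phosphate isomerase, and Aldoa, the main aldolase here, both at -0.48. Per exon length, Pfkl made up 72.5% ± 1.19 of the summed phosphofructokinase level with RIG-I agonist and 72.9% ± 1.56 with control (SD, n = 3 each), so the make-up of the family differed by less than its spread. The hexokinases, which trap glucose in the cell, were not called by the main fit. Hk2 was at 78.8, 77.2 and 81.4 CPM with RIG-I agonist and 84.2, 82.9 and 76.5 CPM with control, with overlapping groups (log2 -0.04, 95% interval -0.17 to 0.09). Hk1 had 93, 93.6 and 98.7 CPM against 126, 100 and 103 CPM, with separated groups (-0.21, adjusted p = 0.0615). It was called by edgeR with replicate number as a block (adjusted p = 0.0413) and without the filter on low counts (adjusted p = 0.00588). DESeq2 called it as well (adjusted p = 0.0361). Aldoc, at 0.335 to 0.774 CPM with RIG-I agonist and 0.645 to 0.937 CPM with control, was too low for a narrow interval (-1.13 to 0.30).

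Lower glycolysis showed 6 falls and no rise among 7 genes. Pgk1, a kinase that makes ATP, was at 1070, 1110 and 1099 CPM with RIG-I agonist and at 1651, 1610 and 2007 CPM with control (log2 -0.68, SE 0.0812, adjusted p = 2.06e-05). Pkm, the pyruvate kinase gene, was at 2720, 2885 and 2764 CPM against 3837, 3876 and 4150 CPM (-0.50, SE 0.0611). Control libraries of both genes lay well above every RIG-I agonist library. Tpi1, a triose isomerase, changed by -0.59, Gapdh, often used as a reference gene, by -0.43, and Pgam1, a mutase, by -0.41. Gapdh itself was at 2009, 1959 and 2012 CPM with RIG-I agonist and 2477, 2630 and 2962 CPM with control. Eno2, the neuronal enolase, was at 33.4, 34.9 and 37.3 CPM against 47, 36.8 and 39 CPM, with overlapping groups. The main fit did not call it (log2 -0.22, adjusted p = 0.0654), while edgeR without the filter on low counts did (-0.24, adjusted p = 0.01).

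Counts were also assigned to near-identical copies of some enzymes, which limits the values of the single genes. How reads were split between a gene and its copy was not tested. Eno1, the main enolase, fell by 0.41 on the log2 scale (adjusted p = 3.24e-04). In CT26 its copy Eno1b held 40.3% to 42.7% of their joint counts, and it was lower with RIG-I agonist as well, at 1424, 1458 and 1321 CPM against 1657, 1852 and 1946 CPM (-0.38, adjusted p = 0.00119). In E0771 and MC38 Eno1b held at most 0.0665% of the joint counts. With the counts of both genes added, the CT26 change of Eno1 was -0.39. The copy Pgk1-rs7 held 2.33% to 13.6% of joint counts in CT26 and the pseudogene Pgam1-ps2 12.7% to 17.9%. Pgk1-rs7 itself varied widely there, with 1019 to 6797 counts per library with RIG-I agonist and 1550 to 2057 with control. With copies added Pgk1 changed by -0.61 and Pgam1 by -0.43. Adding copies to their parent genes left the number of members called in CT26 at 24, and these were the same genes.

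Of the 3 regulators of flux, Pdk1 changed most. Its product, pyruvate dehydrogenase kinase, holds pyruvate back from the mitochondrial citric acid cycle. Pdk1 (chromosome 2, 71873224 to 71903858, GRCm38) was at 62.2, 69.4 and 61.4 CPM with RIG-I agonist, against 149, 125 and 155 CPM with control. The groups lay far apart, and the log2 fold change was -1.15, with an SE of 0.0805 and an adjusted p = 2.01e-07, a fall of 55.0%. Pfkfb3 and Pfkfb4, which make and break down the activator fructose 2,6-bisphosphate, were not called. Pfkfb3 was near the limit of measurement in CT26, at 0.667, 0.67 and 0.872 CPM against 0.527, 0.645 and 0.521 CPM (0.37, 95% interval -0.22 to 0.97). Pfkfb4 was at 6.9 to 8.27 CPM with RIG-I agonist and 6.93 to 7.5 CPM with control (0.05, interval -0.17 to 0.26).

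Of 9 hypoxia targets outside glycolysis, 7 fell in CT26. Bnip3, a mitophagy receptor, was at 110, 131 and 109 CPM with RIG-I agonist and 224, 182 and 236 CPM with control (log2 -0.87, SE 0.12, adjusted p = 0.00134). Ankrd37, a small ankyrin-repeat gene at low level, had 1.76, 2.04 and 2.1 CPM against 2.89, 2.68 and 4.84 CPM (-0.82, SE 0.22, adjusted p = 0.00958). Without control replicate 3 its change was -0.51 (adjusted p = 0.0407). For both, all RIG-I agonist libraries were below all controls. P4ha1 and P4ha2, collagen prolyl hydroxylases, changed by -0.45 and -0.60, Mxi1, a MYC antagonist, by -0.55, and Ndrg1, a stress-induced gene, by -0.49. Vegfa, the vascular growth factor, was at 166, 172 and 168 CPM against 180, 163 and 160 CPM, and its interval of -0.11 to 0.13 was narrow around 0. Kdm3a, a histone demethylase, was at 79, 70.4 and 75.7 CPM against 67.2, 66.9 and 75.6 CPM (0.10, interval -0.04 to 0.25). Neither was called.

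Car9, a membrane carbonic anhydrase that exports acid and a widely used hypoxia marker, had the largest change among the called members and the widest interval. It was at 2.67, 3.43 and 4.57 CPM with RIG-I agonist and 16.8, 6.85 and 15.4 CPM with control, so that control replicate 2 lay nearer to the RIG-I agonist libraries than to the other controls. Its log2 fold change of -1.88 (SE 0.46, adjusted p = 0.0367) has a 95% interval of -3.12 to -0.64. It was not called with replicate number as a block (-1.81, adjusted p = 0.105). The test called it without control replicate 2 (-2.19, adjusted p = 7.53e-05), but not without any other single library, where the adjusted p reached 0.0841 to 0.128.

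The oxygen sensor and HIF genes that could be tested both fell. Egln1, the main prolyl hydroxylase of HIF, was at 79, 83.7 and 83.8 CPM with RIG-I agonist and 156, 115 and 126 CPM with control (log2 -0.69, SE 0.1, adjusted p = 7.15e-04). Hif1a, the alpha subunit itself, was at 108, 109 and 112 CPM against 153, 142 and 155 CPM (-0.45, SE 0.0516, adjusted p = 1.42e-05), a fall of 26.9%. Groups of both genes were fully separated. HIF is regulated largely through the stability of its protein, which was not measured. Egln3, a hydroxylase gene that HIF induces, had 0 counts with RIG-I agonist and 1 with control over all CT26 libraries, and a count of 0 allows up to 3. Epas1, which encodes HIF-2 alpha, had 4 and 7 counts. These counts allowed no comparison.

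**Figure D2:**
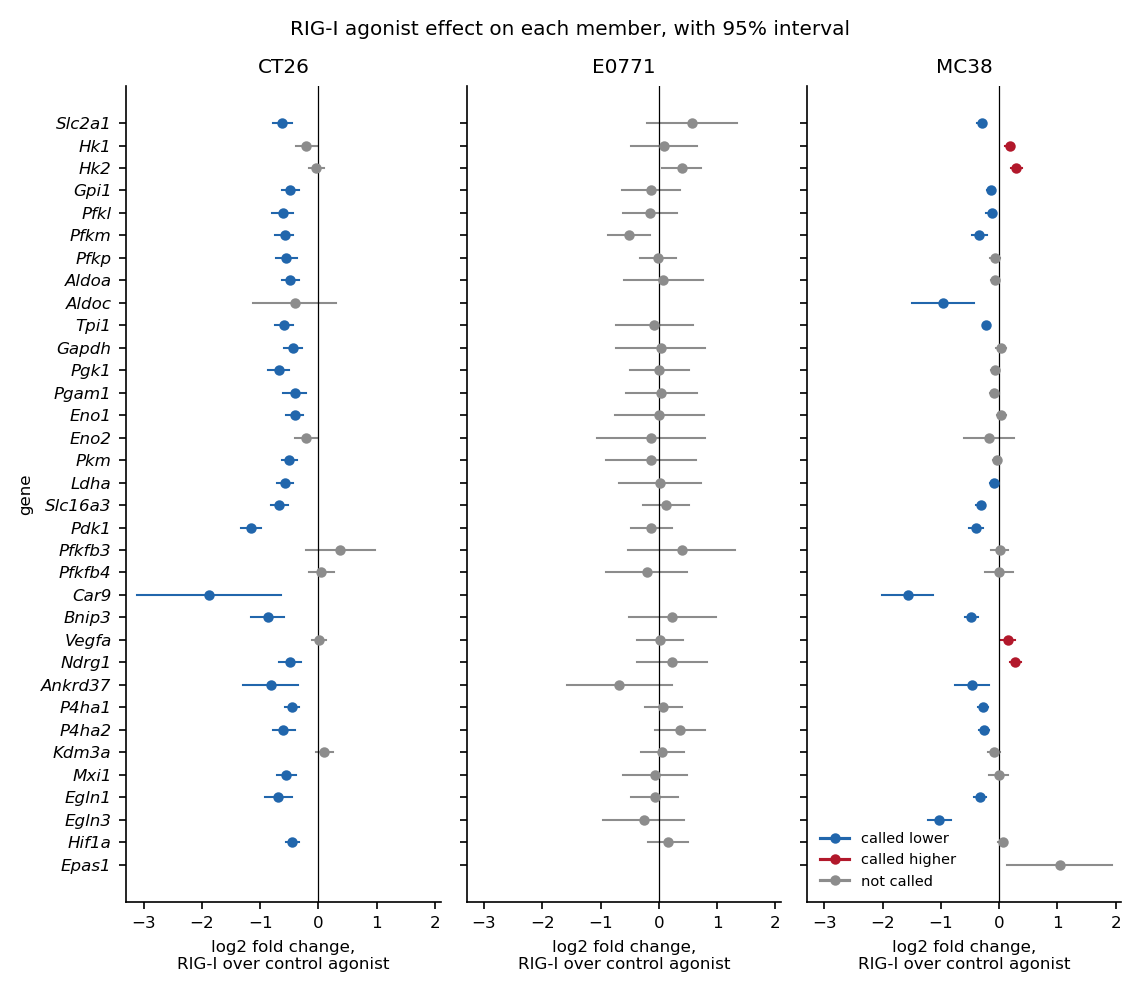
Log2 fold change of RIG-I agonist over control agonist (horizontal axis) for each member in each line, with the 95% interval as a bar; blue is called lower, red called higher and grey not called, and untested members have no point. In CT26 24 of 32 tested members are called lower, in E0771 0 of 31 are called, and in MC38 16 of 34 are lower and 4 higher.

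The CT26 controls were also taken singly, over all 32 tested members and with no test. All 3 RIG-I agonist libraries lay below control replicate 1 for 29 of the 32, below replicate 2 for 26 and below replicate 3 for 27, against 39.7%, 38.1% and 39.7% of all genes tested. The median log2 ratio of the RIG-I agonist mean to 1 control was -0.58 for replicate 1, -0.38 for replicate 2 and -0.52 for replicate 3, against 0.01 over all genes tested for each. For the 24 called members, which were chosen by their call in these same libraries, the medians were -0.63, -0.45 and -0.58 in the same order. Control replicate 2 was the nearest to the RIG-I agonist libraries by these medians: it was the lowest control for 18 of the 24 genes and the highest for 0, while replicates 1 and 3 were each the highest for 12.

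The controls differed more among themselves than the RIG-I agonist libraries did. The highest control exceeded the lowest by a median factor of 1.24 over the 24 genes, from 1.08 to 2.46 for Car9. Among RIG-I agonist libraries this factor had a median of 1.06 (1.01 to 1.71). The lowest control exceeded the highest RIG-I agonist library by a median factor of 1.31, from 1.14 to 1.8. For 6 of the 24, Pfkp, Pgam1, Car9, Ndrg1, Ankrd37 and P4ha2, this gap was smaller than the spread among the controls. Refitting without each of the 6 libraries called 23 to 26 members lower and 0 higher. Car9 apart, 23 of the 24 members were called in each of these 6 fits, and no called member changed sign. Without control replicate 2, Hk1 (-0.27, adjusted p = 0.0338) and Eno2 (-0.29, adjusted p = 0.0341) were called as well, and the median moved to -0.57. After Car9, the genes with the highest adjusted p in any of these fits were Ankrd37 (0.0497 without RIG-I replicate 1, 0.0407 without control replicate 3), Bnip3 (0.0363 without control replicate 1) and Pgam1 (0.0211 without RIG-I replicate 2).

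**Figure D3:**
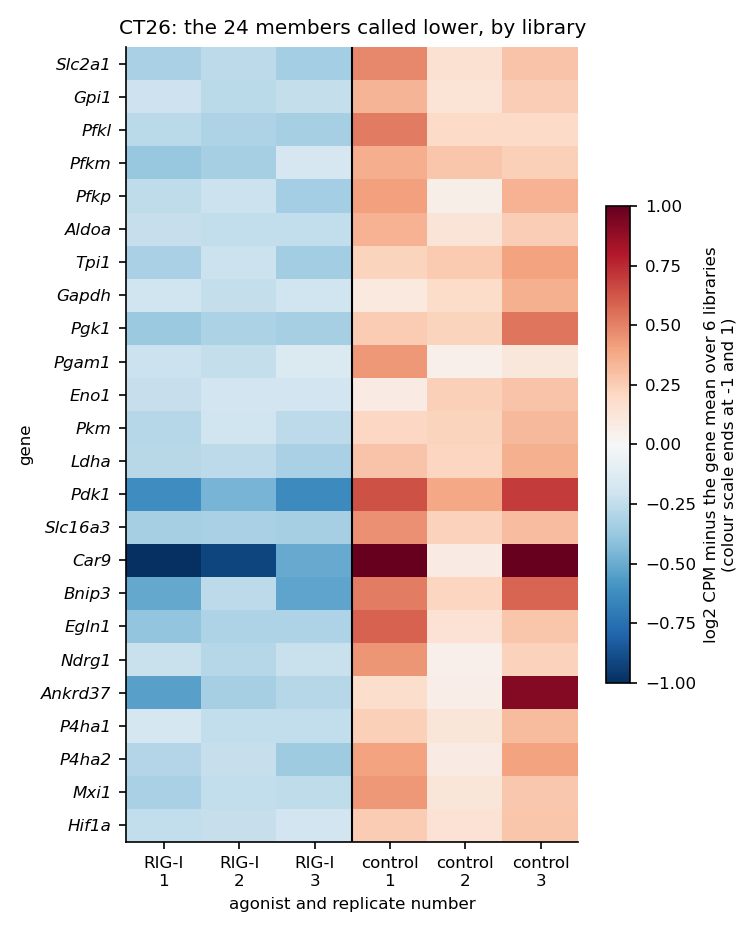
Level of the 24 members called lower in CT26 (rows) in each library (columns, RIG-I agonist left of control agonist), as log2 CPM minus the gene's mean over the 6 libraries; blue is below and red above the mean. All RIG-I columns are blue, and control replicate 2 is the palest control column, being the lowest control for 18 of the 24 genes.

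In CT26, 4 of 6 fibroblast markers were called lower, against 18.6% of all genes tested. All 6 together summed to 1149 to 1184 CPM with RIG-I agonist and 1298 to 1653 CPM with control. Among the called markers Col1a1, a collagen gene, changed by -0.48 and Pdgfrb, a growth factor receptor gene, by -0.42. Thy1 (0.35) and Dcn (-0.36) were not called. Of 5 epithelial markers, 2 were tested: Krt18 was lower (-0.48), and Krt8 was not called (0.53, adjusted p = 0.354). Their part in the result was not tested.

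No member was called in E0771 by the main fit, where 31 of 34 were tested. Over all 11728 genes tested, 1.53% were called higher and 0.0256% lower, so few genes of any kind passed. Without adjustment, 2 members passed 0.05 in edgeR, Hk2 and Pfkm, and DESeq2 called 0. With replicate number as a block, edgeR called 4 members higher and 2 lower, and 1243 of all genes higher and 1215 lower. That fit rests on 2 pairs, and the labels state no pairing. The median of the members was 0.02, against -0.01 over all genes. Among the tested members the groups did not overlap for 4 with higher and 3 with lower RIG-I agonist values, against 20.4% and 20.0% of all genes.

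The 2 libraries of each E0771 group stood apart in these genes. With RIG-I agonist, 22 of 31 tested members were higher in replicate 1 than in replicate 2, by a median log2 ratio of 0.34. With control agonist, 23 of 31 were, by 0.29. Over all genes tested the median was 0.00 and the share 49.8% in both groups. Of the 17 tested members that encode glycolytic enzymes or the transporters and Ldha at the ends of the pathway, 15 were higher in replicate 1 in each agonist. In MC38 the members' medians were 0.02 and 0.01. Slc2a1 shows the pattern: it was at 253 and 158 CPM in RIG-I agonist replicates 1 and 2, against 166 and 111 CPM in control replicates 1 and 2. The groups overlapped, and its log2 fold change of 0.57 had an interval of -0.20 to 1.34. With the replicate block Slc2a1 was called (0.56, SE 0.08, adjusted p = 1.13e-04).

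**Figure D4:**
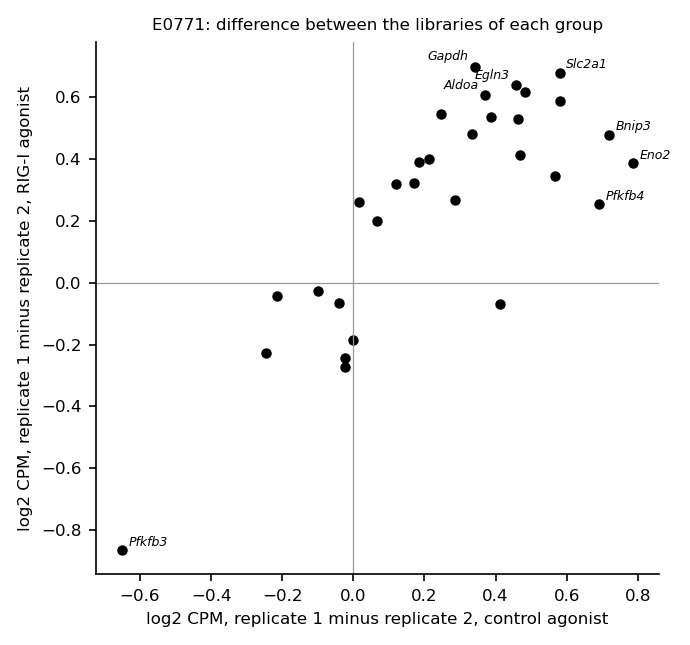
Log2 difference between replicate 1 and replicate 2 in E0771 for the 31 tested members, with RIG-I agonist on the vertical axis and control agonist on the horizontal axis; each point is a gene, and some of the outermost are named. Most points lie in the upper right, where replicate 1 is higher in both agonists, and Pfkfb3 lies at the lower left.

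Individual E0771 values show how wide the intervals were. Ldha was at 2667 and 1847 CPM with RIG-I agonist and 2575 and 1869 CPM with control (log2 0.02, interval -0.69 to 0.73), and Gapdh at 3325 and 2049 CPM against 2951 and 2330 CPM (0.03, -0.74 to 0.79). These intervals contain changes of the size seen in CT26. Pdk1 was better determined, at 103 and 122 CPM against 122 and 124 CPM (-0.13, -0.48 to 0.23). Hif1a was at 326 and 371 CPM against 313 and 313 CPM (0.15, -0.19 to 0.50). The intervals of Pdk1 and Hif1a leave out the CT26 estimates of -1.15 and -0.45. Hk2 was at 132 and 115 CPM against 96.7 and 92.3 CPM (0.39, adjusted p = 0.406), and Pfkm at 38.7 and 39.9 CPM against 51.8 and 60.1 CPM (-0.51, adjusted p = 0.29), both with separated groups. Egln3 was high in this line, at 95.7 and 61.5 CPM against 109 and 79.4 CPM (-0.26, -0.95 to 0.43). Ankrd37 had the lowest estimate, -0.68, with an interval of -1.58 to 0.22. Apart from Slc2a1, described above at 0.57, the other tested members had estimates from -0.21 (Pfkfb4) to 0.39 (Pfkfb3), and their intervals all included 0. Car9, Aldoc and Epas1 were too low to test, with 10 and 14, 4 and 3, and 5 and 1 counts with RIG-I and control agonist.

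In MC38 members were called in both directions. All 34 members were tested, with 16 called lower and 4 higher, and over all 12387 genes tested 16.9% were lower and 18.9% higher. The median of the members was -0.09, against 0.00 over all genes. Groups did not overlap for 23 members on the lower side and 7 on the higher, against 33.8% and 33.4% of all genes. The libraries of each MC38 group were very close, so small changes passed the test: with 1 spread estimated over all 14 libraries, 4 members were lower (Car9, Egln3, Pdk1 and P4ha1) and 1 was higher (Hk2). DESeq2 called 12 lower and 3 higher.

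By role, the members called lower in MC38 were 3 of 3 entry and exit genes, 4 of 8 of upper and 1 of 7 of lower glycolysis, 1 of 3 flux regulators, 5 of 9 hypoxia targets and 2 of 4 oxygen sensor and HIF genes, with no test between roles. Car9 was at 2.52 and 2.1 CPM with RIG-I agonist and 7.08 and 6.53 CPM with control (log2 -1.57, SE 0.21, adjusted p = 4.28e-06), a fall of 66.4%. Egln3 was at 12.6 and 12 CPM against 26.1 and 24.1 CPM (-1.03, SE 0.0947, adjusted p = 1.98e-08). The 2 libraries of each group nearly coincided for both genes. Bnip3 was at 55.6 and 55 CPM against 77.5 and 77.2 CPM (-0.48, SE 0.0529), and Pdk1 at 57.6 and 59.2 CPM against 75.6 and 78.5 CPM (-0.40, SE 0.0532). Slc16a3 was at 435 and 419 CPM against 520 and 544 CPM (-0.32, SE 0.0352). Egln1 changed by -0.33, Slc2a1 by -0.30, P4ha1 by -0.28, P4ha2 by -0.26 and Ankrd37 by -0.47. Within the EGLN pair, Egln3 supplied 18.7% ± 0.914 of the level per exon length with RIG-I agonist and 27.1% ± 0.245 with control (SD, n = 2 each).

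Among glycolysis genes in MC38, Aldoc, a minor aldolase, was at 1.95 and 2.1 CPM with RIG-I agonist and 4.18 and 3.76 CPM with control (log2 -0.96, adjusted p = 0.00463). Pfkm changed by -0.34, Tpi1 by -0.22, Gpi1 by -0.14, Pfkl by -0.13 and Ldha by -0.09 (adjusted p = 0.0417). Of 7 lower glycolysis genes only Tpi1 was called, while with the reads of named copies added Pgam1 was called as well (-0.09, adjusted p = 0.0355, against -0.08 and 0.0639). Gapdh (0.03, interval -0.06 to 0.12), Eno1 (0.04, -0.03 to 0.11), Pkm (-0.04, -0.11 to 0.03) and Pgk1 (-0.07, -0.14 to 0.00) had narrow intervals near 0. The hexokinases went the other way: Hk2 was at 113 and 113 CPM against 93.3 and 90.9 CPM (0.29, SE 0.045, adjusted p = 2.33e-05), and Hk1 at 199 and 198 CPM against 173 and 178 CPM (0.18, SE 0.0381). Ndrg1, at 93 and 96 CPM against 77.5 and 78.6 CPM (0.28, adjusted p = 9.46e-05), and Vegfa, at 64.9 and 65.8 CPM against 57.5 and 60.5 CPM (0.15, adjusted p = 0.0391), were the other called rises.

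The remaining MC38 members were not called. Pfkp, Aldoa, Pgam1, Eno2 and Kdm3a had estimates of -0.17 to -0.07, while Pfkfb3, Pfkfb4 and Mxi1 lay within 0.01 of 0. Hif1a was at 229 and 233 CPM with RIG-I agonist and 225 and 219 CPM with control (0.06, interval -0.02 to 0.13). Epas1 had 36 counts with RIG-I agonist and 16 with control, its highest in any line (1.04, SE 0.43, adjusted p = 0.0669). Leaving out single MC38 libraries called 13 to 15 members lower and 3 to 4 higher, and Ldha, Pfkl, Ankrd37 and Vegfa were each lost in at least 2 of the 4 fits; Pfkl was at -0.08 without control replicate 1. Of 6 fibroblast markers 3 were also lower in MC38, Col1a1, Pdgfrb and Pdgfra, against 16.9% of all genes tested. All 6 together summed to 51.4 to 56.5 CPM with RIG-I agonist and 80.9 to 81.3 CPM with control. Their part in the result was not tested.

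**Figure D5:**
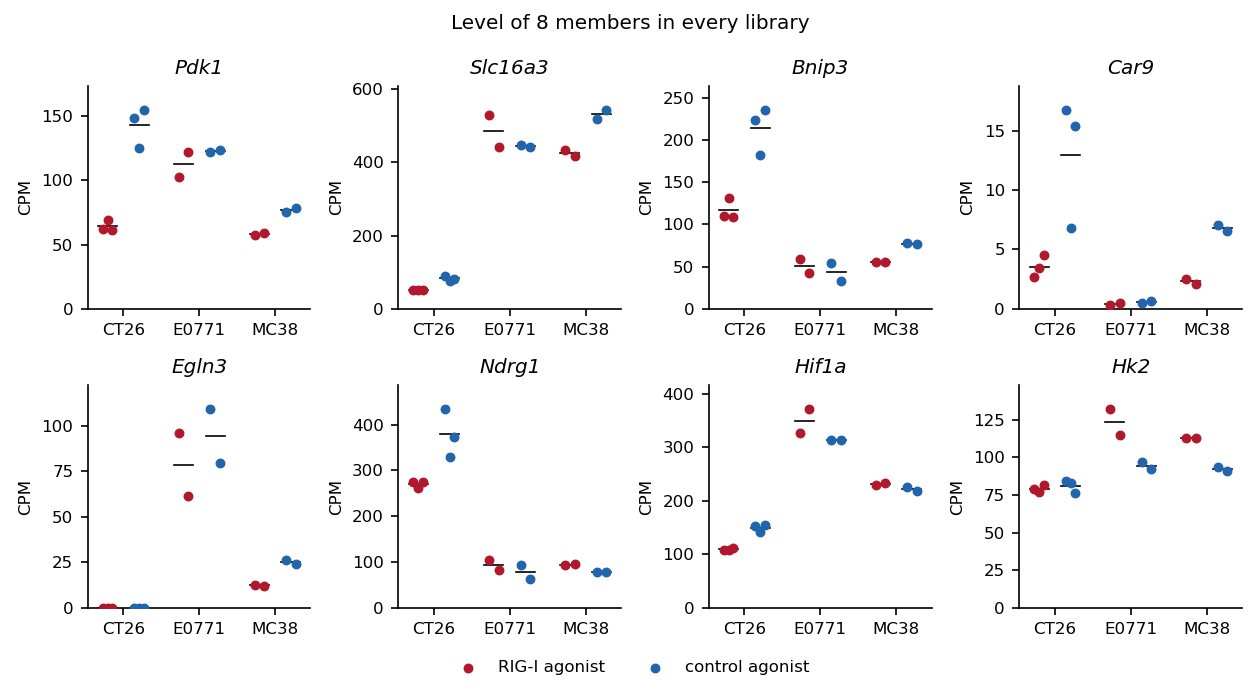
CPM (vertical axes, from 0) of 8 members in every library, by line, with RIG-I agonist in red left of control agonist in blue; points are libraries and lines are group means. Pdk1 and Bnip3 are lower with RIG-I agonist in CT26 and MC38, Hif1a is lower in CT26 alone by the test within lines, and Hk2 is higher in MC38.

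The lists of CT26 and MC38 overlapped in part. Of the 24 members lower in CT26, 14 were also called lower in MC38, which is 14 of the 16 lower there. Over all genes tested in MC38, 16.9% were called lower. The share called lower in both lines was not counted over all genes, so whether this overlap is particular to the members is not shown. They were Slc2a1, Gpi1, Pfkl, Pfkm, Tpi1, Ldha, Slc16a3, Pdk1, Car9, Bnip3, Egln1, Ankrd37, P4ha1 and P4ha2. Aldoa, Pfkp, Gapdh, Pgk1, Pgam1, Eno1, Pkm, Mxi1 and Hif1a were called lower in CT26 and not called in MC38, and Ndrg1 was lower in CT26 and higher in MC38. Aldoc and Egln3 were lower in MC38 and not called or not tested in CT26.

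Whether the effect itself differed between lines was tested as an interaction over all 14 libraries. For CT26 minus MC38, 5 members had a lower (more negative) effect in CT26 and 0 a higher one, against 1.82% and 1.98% of 14657 genes tested (3.80% in either direction). The median difference of the 34 members was -0.42, against -0.04 over all genes. The 5 were Ndrg1 (-0.82, SE 0.21, adjusted p = 0.0487), Pdk1 (-0.80, SE 0.14, adjusted p = 0.0073), Pgk1 (-0.67, SE 0.16, adjusted p = 0.034), Hif1a (-0.56, SE 0.0997, adjusted p = 0.00839) and Pfkp (-0.53, SE 0.13, adjusted p = 0.0366). Pdk1 was called in all 14 fits without a single library and Hif1a in 12, and the others in 5 or 6. The count was 3 without CT26 control replicate 1 or 3 and 2 without CT26 RIG-I replicate 1, 2 or 3, MC38 control replicate 1 or MC38 RIG-I replicate 1. It was 1 without MC38 control or RIG-I replicate 2, and 13 without E0771 RIG-I replicate 1 or 2. Ndrg1 was not called with DESeq2-type size factors (RLE, adjusted p = 0.0623). With replicate number as a block within each line, 20 members were lower. Only the CT26 numbers were taken as pairs. Same-numbered libraries correlated at 0.7 in E0771, which has only 2 pairs, and at -0.007 in MC38. The difference was not called for Car9 (-0.36, interval -1.44 to 0.72), Bnip3 (-0.44, -1.02 to 0.14) or Slc2a1 (-0.37, -0.94 to 0.19). The biological coefficient of variation over all 14 libraries was 0.122, above that of CT26 (0.102) or MC38 (0.0304) alone. This comparison can therefore miss differences, and a member not called is not shown to be alike in both lines.

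For CT26 minus E0771, 11 members had a lower effect in CT26 and 0 a higher one, against 2.81% and 1.06% of genes tested (3.88% in either direction). This comparison shares the CT26 libraries with the one before it. The largest differences were those of Slc2a1 (-1.23, SE 0.26, adjusted p = 0.0227), Bnip3 (-1.14, SE 0.27, adjusted p = 0.0403), Pdk1 (-1.07, SE 0.14, adjusted p = 7.87e-04) and P4ha2 (-0.99, SE 0.15, adjusted p = 0.0025). Slc16a3 followed at -0.83, Pgk1 at -0.73, Egln1 at -0.65, Hif1a at -0.64, Pfkp and P4ha1 at -0.57 and Hk2 at -0.46. The shared spread is smaller than that of E0771 alone, so these p-values can be too small. Pdk1, Slc16a3, P4ha1, P4ha2 and Hif1a were called in all 14 fits without a single library, while Bnip3 was called in 4 and Egln1 in 3. Egln1 was not called with RLE size factors (-0.63, adjusted p = 0.0573). With the replicate block 22 members were lower. The count was 7 without CT26 control replicate 1, 5 without CT26 RIG-I replicate 1, 6 without CT26 RIG-I replicate 3 or E0771 control replicate 2, and 21 without E0771 RIG-I replicate 2. For E0771 minus MC38 edgeR called 0 of 34 members, against 2.11% of genes tested in either direction. There 6 members had an unadjusted p under 0.05, and DESeq2 called 3.

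Levels of the members also differed between lines, which is described without a test. Line and table cannot be told apart, and for MC38 medium cannot either. Per exon length, scaled to the same sum in every library (as in TPM), Ldha averaged 1644 ± 33.3 with RIG-I agonist and 2379 ± 133 with control in CT26 (SD, n = 3 each), and it was the highest member there with either agonist. In E0771 Ldha was at 2038 ± 544 and 1825 ± 576, close to Gapdh at 1944 ± 672 and 1732 ± 447 (SD, n = 2 each), and their ranges overlapped. In MC38 Pkm was highest, at 2503 ± 37.4 with RIG-I agonist and 2508 ± 49.1 with control. Slc16a3 was at 23.5 ± 0.0639 and 36.4 ± 4.7 in CT26, against 272 ± 37.9 and 225 ± 23.1 in E0771 and 244 ± 0.688 and 297 ± 14.4 in MC38, on the same scale and in the same order. Pfkfb3 was at 0.236 ± 0.0389 and 0.175 ± 0.0227 in CT26, and between 8.98 and 20.2 in every library of the other lines. In CT26 it made up 5.95% and 4.75% of the summed Pfkfb3 and Pfkfb4 level with RIG-I and control agonist, against 65.6% and 65.4% in MC38. Egln3 was at 0 with RIG-I agonist in CT26, where control had 1 count in all, and at 88.2 ± 28 and 96.2 ± 30.1 with RIG-I and control agonist in E0771.

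The wider pathway was measured with 2 further lists. Of 33 other glycolysis genes, 22 were tested in CT26, with 7 lower and 1 higher, against 18.6% and 19.8% of all genes tested, and a median of -0.14. Pgm1, a phosphoglucomutase, was at 66.6, 67 and 65.7 CPM with RIG-I agonist and 106, 90.6 and 106 CPM with control (log2 -0.60, adjusted p = 1.23e-05). Gpd2, a mitochondrial glycerol-3-phosphate dehydrogenase, changed by -0.34, Pdha1, a pyruvate dehydrogenase subunit, by -0.29 and Mpc1, a pyruvate carrier subunit, by -0.25. The rise, named after its value was seen, was that of Slc2a3, the glucose transporter GLUT3, at 2.75, 3.48 and 2.49 CPM against 0.666, 0.943 and 0.443 CPM (2.08, adjusted p = 3.12e-05). Thus the transporter genes Slc2a1 and Slc2a3 were called in opposite directions. In MC38, 6 of 21 were lower and 3 higher, against 16.9% and 18.9% of all genes tested, among them Slc2a8 (-0.62), Gpd2 (-0.29), Ldhb (-0.25) and the lactate transporter gene Slc16a1 (-0.20), and, on the higher side, Bpgm (0.55), Tigar (0.33) and Pdk3 (0.18). In E0771, 0 of 20 were called, against 1.56% of all genes tested.

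Of 62 other HIF response genes found in the tables, 47 were tested in CT26, with 18 lower and 12 higher, against 18.6% and 19.8% of all genes tested, and a median of -0.06. Gbe1, the glycogen branching enzyme, was at 20.8, 22.2 and 23.8 CPM with RIG-I agonist and 47.2, 33.7 and 50.3 CPM with control (log2 -0.97, adjusted p = 0.00205). Ero1l, an oxidase of the endoplasmic reticulum, was at 201, 226 and 230 CPM against 449, 330 and 491 CPM (-0.95, adjusted p = 0.00245). Control replicate 2 was again the lowest control for both. Gys1, glycogen synthase, changed by -0.74 and Fam162a by -0.69. On the higher side were Dusp1, a MAP kinase phosphatase, at 2.08, Loxl2 at 1.61, Angptl4, a lipoprotein lipase inhibitor, at 1.26 and Pnrc1 at 0.77. MC38 had 17 of 46 lower and 10 higher, against 16.9% and 18.9% of all genes tested: Ccng2 (-0.99), Plod2 (-0.61), Gbe1 (-0.54) and Dusp1 (-0.48) fell, and Nfil3 (1.01), Lonp1 (0.52), Rbpj (0.49) and Errfi1 (0.41) rose. Dusp1 was therefore called in opposite directions in these lines, and the difference is not given here. In E0771, 0 of 47 were called, against 1.56% of all genes tested.

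Some members overlap other genes in the annotation. Of the 34, 8 are overlapped by a gene on the opposite strand and 1, Hif1a, by a gene on its own strand. The libraries were stranded, but whether counting used the strand is not given in the sources used here. Ankrd37 is the most exposed, since the counts of Ufsp2 on the other strand came to 2097% of its own in CT26, and Ufsp2 itself changed by -0.30 there, against 0.18 in MC38. Pitrm1, opposite Pfkp, changed by -0.36 in CT26, and Senp1, opposite Pfkm, by -0.02. The gene overlapping Hif1a had 2.26% of its counts in CT26.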

How the data were processed

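Poly(A)-selected, stranded libraries were sequenced, per the labels' protocols. For each line the authors deposited a table of estimated counts (expected counts) per Ensembl gene; Salmon, DESeq2 and GRCm38 are named, without roles, in the submitters' processing notes, and the annotation release is not given in the sources used here. Between 69.1% and 85.3% of values per library were whole, with no tolerance, and all were rounded to whole numbers. Identifiers were matched to GENCODE M21 without their version (34652 of 34866). Aldoa matched 2 identifiers, and the one holding 99.7% of its counts was used.

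Each line was fitted alone with edgeR 4.0.16 (R 4.3.3): quasi-likelihood F test, robust dispersions, TMM, a filterByExpr minimum count of 10, p-values adjusted by Benjamini-Hochberg across every gene tested, called at adjusted p under 0.05. Levels are CPM on TMM-scaled totals. Standard errors and 95% intervals were derived from the F statistic. Differences between lines were interactions in 1 fit of 14 libraries. Levels per exon length used the union of annotated exons. Single-control ratios added a pseudocount of 0.5 CPM. The scripts were tested on simulated data.

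In CT26, deviations of same-numbered libraries correlated at r = 0.143, 0.179 and 0.31, over 0.1 in each pair. Differently numbered libraries ranged from -0.272 to 0.152, so the check does not fully separate the 2 kinds. The numbers were taken to pair these samples, from the titles and this check and not from a statement in the labels. The main fits held no replicate term, and the pairing entered only through the replicate block. Replicates differed beyond sampling noise (chi-square per degree of freedom 2.26 to 43.6). The members, lists and tests were chosen with earlier results of these data known. Every member is described; of other pathway genes, up to 4 called genes per direction and line with the largest change are named, if their mean log2 CPM was 1 or more. Alternatives were RLE size factors, library totals only, no filter, DESeq2 1.42.0, the replicate block, a shared spread, leaving out each library and, chosen after seeing the data, adding the counts of near-identical copies. Counting error limits low values, and a count of 0 allows up to 3 counts.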

Additional observations from a re-analysis of the deposited data

Results flagged for a closer look

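The effect of the RIG-I agonist on 12 members was called different between lines by the interaction test over all 14 libraries. Over all genes tested, 3.80% were called for CT26 minus MC38 and 3.88% for CT26 minus E0771. Several of these members were not called in every fit without 1 library. Between CT26 and MC38 the effect was lower in CT26 for Ndrg1 (-0.82), Pdk1 (-0.80), Pgk1 (-0.67), Hif1a (-0.56) and Pfkp (-0.53). Between CT26 and E0771 it was lower in CT26 for Slc2a1 (-1.23), Bnip3 (-1.14), Pdk1 (-1.07), P4ha2 (-0.99), Slc16a3 (-0.83), Pgk1 (-0.73), Egln1 (-0.65), Hif1a (-0.64), Pfkp (-0.57), P4ha1 (-0.57) and Hk2 (-0.46). Both sets of differences rest on the same CT26 libraries. No group was large enough for a test of single outlying libraries.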

How the results depend on the processing

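No result changed direction among the called values under any alternative run. In CT26 the count of members lower stayed between 23 and 26 under every alternative, including leaving out each library. The CT26 median was -0.57 without control replicate 2 and with the spread of all 14 libraries, and lay between -0.57 and -0.48 over the fits without 1 library. That shared spread called 1520 of all genes higher in CT26, 949 higher and 639 lower in E0771, and 624 higher and 374 lower in MC38; of members it called 1 higher and 1 lower in E0771, and 1 higher and 4 lower in MC38. With the replicate block, E0771 had 4 members higher (Hk2, P4ha2, Pfkfb3, Slc2a1) and 2 lower (Egln3, Pfkm), and 1243 genes higher and 1215 lower; its same-numbered libraries correlated at 0.7, but there are only 2 pairs. In MC38 that correlation was -0.007, and the block called Pgam1 lower (adjusted p = 0.0263). Under the block 20 members were lower for CT26 minus MC38, 22 for CT26 minus E0771, and 4 higher for E0771 minus MC38; apart from Car9 and Hk1 it changed no other member call in CT26. DESeq2 called 370 genes higher and 45 lower in E0771, 1153 higher and 804 lower in MC38, and 3 members higher for E0771 minus MC38. Without the filter 22 genes were lower in E0771, and Car9 was not called in CT26 (adjusted p = 0.0556). The MC38 median was -0.08 without the filter and with DESeq2, and -0.12 to -0.08 over the fits without 1 library; in E0771 these ran from -0.21 to 0.15, with 2 to 8 genes lower. Leaving out 1 library gave 1 to 13 members lower for CT26 minus MC38, 5 to 21 for CT26 minus E0771 and 0 to 4 higher for E0771 minus MC38. The MC38 summed-level ratio was 0.93 as a median over members. Where leaving out a library left 1 in a group, that library was assumed to vary like the other groups. The cause of these shifts was not tested. Depth limits Egln3, Epas1, Aldoc and Car9 where their counts are low.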
